A study of Mus musculus with 6 samples.

Results

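Sterol metabolism in inguinal white fat was followed through 29 named genes: 17 enzymes of cholesterol synthesis, 4 regulators of their transcription, 3 genes of sterol uptake and transport inside the cell, and 5 genes of efflux and storage. The genes were chosen by name and not by a threshold on their values. Earlier results of these data were known at that choice, so the shares of members given below are descriptions and not independent support. Of the 29, 28 were measured, among 18193 genes in all. Soat1, which esterifies cholesterol for storage in lipid droplets, had no probe set annotated to it alone and has no value here. Each gene was read from 1 probe set, the one with the highest mean over the 6 arrays among those annotated to that gene only. Signals are on the log2 scale, so a difference of 1 is a doubling, and the signal of one gene's probe set cannot be set against that of another gene.

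The study compared 3 WT with 3 Naa10-KO mice, with 1 Affymetrix Mouse Genome 430 2.0 array for each animal. Naa10 encodes the enzyme subunit of a complex that acetylates protein N-termini, and the series title names its effect on heat production by beige adipocytes as the question. All 6 mice were males that began a high-fat diet with 60% fat calories at 6 weeks of age, stayed on it for 15 weeks, and spent 4 h at 4 °C before the groin fat was taken. Thus the diet and the cold are shared by both groups, and no chow-fed or warm-housed mice entered this comparison. The strain, the kind of Naa10 allele and the tissues it affects are not given in the sources used here, so the knockout is described only as the labels name it. No probe set was annotated to Naa10, so its transcript could not serve as a check of the genotypes. The arrays come from separate animals, and the p-values measure the spread between these 3 mice and 3 mice.

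Cells make cholesterol from acetyl-CoA. The early enzymes build isoprenoid units through mevalonate and join them to squalene, and the later ones close squalene to lanosterol and trim it to cholesterol. When sterol in the endoplasmic reticulum is low, SCAP escorts the transcription factor SREBP2 to the Golgi, where it is cut and released to switch on the synthesis genes together with NF-Y. INSIG proteins hold SCAP back when sterol is plentiful. Oxysterols act through the nuclear receptor LXRα, encoded by Nr1h3, to raise the efflux genes Abca1 and Abcg1. Adipocytes hold a large store of free cholesterol at the surface of the lipid droplet, and cholesterol leaves fat through these transporters.

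Promoters of synthesis genes are shown because NF-Y and SREBP2 act on this pathway from just before the start of transcription. RefSeq promoter entries of build GRCm38.p6, each covering 250 bases before to 50 bases from the start, were found for 23 of the 29 genes. Fdps, Fdft1, Sqle, Stard4, Npc1 and Abcg1 are named only. The motifs searched on both strands were the NF-Y core CCAAT, the SREBP site TCACNCCAC, the E-box CACGTG and an LXR site made of repeats of AGGTCA with 4 bases between them and at most 1 mismatch in each. The lines give bases before the start, 5′ to 3′ on the gene's strand, for 5 synthesis genes whose WT and Naa10-KO arrays did not overlap, and then for the pair with the smallest differences, Hmgcs1 and Msmo1. This choice was made after the values were seen. Only entries with a marked motif are shown, which for Dhcr7 is 1 of 3. Capitals mark the NF-Y core (CCAAT, or ATTGG where it lies on the other strand) and, in Hmgcs1, the SREBP site. Cyp51 lies at chr5:4104698-4104797 (minus strand), Dhcr7 at chr7:143830114-143830213 (plus strand, 1 of its 3 entries), Nsdhl at chrX:72918421-72918520 (plus strand), Sc5d at chr9:42264301-42264400 (minus strand) and Tm7sf2 at chr19:6067851-6067950 (minus strand). Hmgcs1 lies at chr13:119690201-119690350 (plus strand) and Msmo1 at chr8:64733579-64733678 (minus strand).
Cyp51: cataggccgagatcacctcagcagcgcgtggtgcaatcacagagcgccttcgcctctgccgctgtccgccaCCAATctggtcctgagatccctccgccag
Dhcr7: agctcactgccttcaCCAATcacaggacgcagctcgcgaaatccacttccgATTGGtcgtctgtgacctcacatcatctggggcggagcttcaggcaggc
Nsdhl: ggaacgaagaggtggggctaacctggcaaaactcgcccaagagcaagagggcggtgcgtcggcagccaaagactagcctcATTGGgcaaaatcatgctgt
Sc5d: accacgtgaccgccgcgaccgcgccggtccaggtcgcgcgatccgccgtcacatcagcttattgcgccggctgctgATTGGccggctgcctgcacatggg
Tm7sf2: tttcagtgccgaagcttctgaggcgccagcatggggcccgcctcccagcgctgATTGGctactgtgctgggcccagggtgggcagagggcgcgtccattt
Hmgcs1: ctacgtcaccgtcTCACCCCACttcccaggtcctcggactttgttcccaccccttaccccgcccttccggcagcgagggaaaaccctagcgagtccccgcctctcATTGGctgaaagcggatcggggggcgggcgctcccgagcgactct
Msmo1: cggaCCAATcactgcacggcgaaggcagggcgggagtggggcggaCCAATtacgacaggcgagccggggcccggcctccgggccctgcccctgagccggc

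The NF-Y core was present in the promoters of 14 of the 14 synthesis genes with an entry, against 41.1% of the 27025 genes in the RefSeq table. A gene counts if any of its entries holds the core. By entry it was in 14 of 17, against 37.4% of all entries. It lay in genes with a gap between the genotypes and in genes without one alike. Among the regulators it was found in 3 of 4 genes, and in efflux and storage in 1 of 4, Soat1. The SREBP site was found in 1 of the 14 synthesis genes, Hmgcs1, with its first base at -137 from the start, against 1.44% of all genes. Only exact matches to its letters were counted, so the other synthesis genes may hold sites that vary from them. The E-box was in 3 of the 14 (Dhcr7, Hsd17b7 and Sc5d), against 8.09% of all genes. In Dhcr7 it lay in an entry that is not shown. The LXR site was in 0 of the 23 genes, against 2.02% of all genes. At so low a share, few genes would hold a match in any case, so this shows no lack of the site. The efflux gene Abcg1 had no entry. These matches describe letters in the window of each entry, and no binding was measured.

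Enzymes of cholesterol synthesis had a mean signal below that of WT fat in Naa10-KO fat in 15 of 17 cases, but no single enzyme passed the test. Msmo1, counted among the 15, differed by only -4e-04. The median log2 difference of the 17 (Naa10-KO minus WT) was -0.35, where all 18193 genes had a median of 0.01 and 48.6% lower means. In 6 of the 17, every Naa10-KO array lay below every WT array: Fdps, Nsdhl, Tm7sf2, Dhcr7, Cyp51 and Sc5d. That is 35.3% of the enzymes, against 8.14% of all genes and 9.76% of the 11359 genes with a mean at or above the median of all probe set values, 5.86. Stard4 and Npc1, which move cholesterol between membranes, were the only members whose Naa10-KO arrays all lay above the WT arrays. These are 7.14% of the 28 members, against 10.0% of all genes. The 28 include the 17 enzymes, of which 0 lay higher with no overlap. Stard4 and Npc1 are 18.2% of the 11 members outside synthesis and 66.7% of the 3 uptake and transport genes. So few genes give no firm share. In limma with Benjamini-Hochberg adjustment over all genes, 0 of the 28 members passed an adjusted p of 0.05, where 0.115% of all genes did, and the lowest adjusted p was 0.436, for Dhcr7. At an unadjusted p under 0.05, 4 members were lower, against 4.35% of all genes, and 2 were higher, against 4.85%. Skeletal muscle markers were higher on all Naa10-KO arrays as a group. Their mean follows genotype, so muscle signal and genotype cannot be told apart. With that mean as a covariate, the synthesis median was 0.03 and 8 of 17 means were lower. In bulk tissue, fewer cells of a type and less RNA per cell cannot be told apart.

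**Figure D1:**
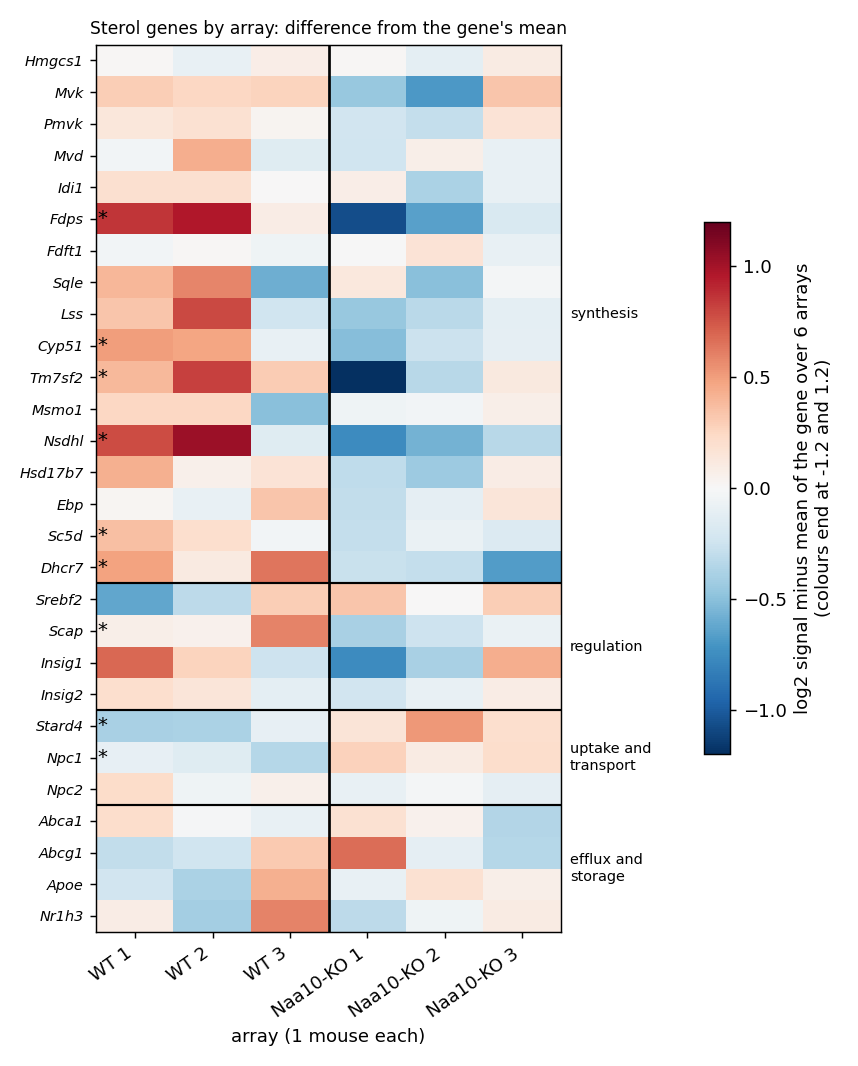
Each row is a measured gene and each column an array; colour gives the log2 signal minus the gene's mean over the 6 arrays, and an asterisk marks genes whose genotypes did not overlap. Among the 17 synthesis genes, 14 lay below their mean on Naa10-KO 1, 15 on Naa10-KO 2 and 10 on Naa10-KO 3, against 2, 2 and 8 on WT 1, WT 2 and WT 3.

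The early enzymes, up to squalene, were mixed. Hmgcs1, the cytosolic HMG-CoA synthase that begins the pathway, had WT signals of 14.15, 14.04 and 14.21 and Naa10-KO signals of 14.15, 14.02 and 14.23, with a log2 difference of 0.001 (SE 0.14, adjusted p = 0.999). The arrays of both genotypes lay on top of each other. A second well-expressed probe set of Hmgcs1 differed by -0.31, so the probe sets of this gene did not read alike. Fdft1, the squalene synthase that commits farnesyl units to sterols, differed by 0.05 (SE 0.14, adjusted p = 0.917) on its brightest probe set. On another, its WT signals of 10.71, 10.85 and 10.59 all lay above the Naa10-KO signals of 10.36, 10.58 and 10.43 (difference -0.26).

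The kinases and decarboxylase that work on mevalonate had overlapping arrays. Mvk, mevalonate kinase, was nearly level in WT at 7.99, 7.94 and 7.96, and read 7.24, 7.0 and 8.02 in Naa10-KO (difference -0.54, SE 0.29, adjusted p = 0.611). Only Naa10-KO 1 and 2 were low, while Naa10-KO 3 was the highest array of all. Pmvk, the next kinase, was likewise low on Naa10-KO 1 and 2 only, with 9.64, 9.59 and 10.04 in Naa10-KO against 9.90 to 10.05 in WT (difference -0.23, adjusted p = 0.703). Mvd, the decarboxylase, differed by -0.17 (adjusted p = 0.811), and Idi1, the isopentenyl diphosphate isomerase, by -0.26 (adjusted p = 0.676).

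Fdps, which joins isoprenoid units into farnesyl diphosphate, had the largest difference of the 28 members. Its signal was 9.74, 9.84 and 8.97 on the WT arrays and 7.82, 8.23 and 8.70 on the Naa10-KO arrays, a mean of 9.52 ± 0.48 (SD, n = 3) against 8.25 ± 0.44. Naa10-KO 3 came within the reach of WT 3, the lowest WT array, without crossing it. The log2 difference was -1.27 (SE 0.34, 95% interval -2.13 to -0.40, a 2.40-fold lower mean), with an unadjusted p of 0.0126 and an adjusted p of 0.462 in limma. The 7 enzymes up to squalene together had a median difference of -0.23, and Fdps was the only one of them with a gap between the genotypes on its brightest probe set.

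All 10 enzymes from squalene on had a lower mean in Naa10-KO, though Msmo1 was in effect level, with a difference of only -4e-04. The median difference of the 10 was -0.51, and 5 of them had no overlap. Over all genes, 48.6% had lower means and 8.14% lay lower with no overlap. The split of the pathway at squalene was made after the values were seen. Sqle, the epoxidase that opens this branch, read 7.94, 8.13 and 6.96 in WT and 7.67, 7.04 and 7.52 in Naa10-KO (difference -0.26, SE 0.37, adjusted p = 0.838), so WT 3 was its lowest array. Lss, which closes the ring to lanosterol, read 8.68, 9.14 and 8.11 in WT and 7.89, 8.02 and 8.23 in Naa10-KO (difference -0.60, SE 0.30, adjusted p = 0.595). WT 3 and Naa10-KO 3 overlapped in Lss. A second probe set of Lss, with 8.02, 7.95 and 7.65 in WT and 7.22, 7.46 and 7.18 in Naa10-KO, did not overlap and gave nearly the same difference of -0.59.

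Cyp51, the lanosterol demethylase, read 9.85, 9.82 and 9.26 in WT and 8.84, 9.09 and 9.24 in Naa10-KO. The groups were separated only by the small step between WT 3 and Naa10-KO 3. The log2 difference was -0.59 (SE 0.23, 95% interval -1.16 to -0.02), with an unadjusted p of 0.0460 and an adjusted p of 0.540. Of its other probe sets, 1 with 7.29 to 7.97 in WT and 7.52 to 8.23 in Naa10-KO differed by 0.15, in the opposite direction, and 1 near the low end of the array by 0.33.

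Tm7sf2, a sterol reductase acting after Cyp51, read 7.50, 7.93 and 7.41 in WT and 5.81, 6.77 and 7.22 in Naa10-KO. Its Naa10-KO arrays were spread widely, and the lowest fell under the median of all probe set values. The difference was -1.02 (SE 0.40, a 2.02-fold lower mean, unadjusted p = 0.0501, adjusted p = 0.542). Without Naa10-KO 1 the difference was -0.62.

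Msmo1, Nsdhl and Hsd17b7 act in turn to strip methyl groups from the sterol ring, and they differed in size. Nsdhl, the dehydrogenase, read 10.67, 10.91 and 9.74 in WT and 9.13, 9.32 and 9.55 in Naa10-KO. Its Naa10-KO arrays lay close together, below WT 3 by a small step and far below the other two. The log2 difference was -1.10 (SE 0.35, 95% interval -1.97 to -0.23, a 2.15-fold lower mean), with an unadjusted p of 0.0218 and an adjusted p of 0.501. Msmo1, the oxidase, read 10.26, 10.26 and 9.51 in WT and 9.96, 9.98 and 10.08 in Naa10-KO, with a difference of -4e-04 (SE 0.25, 95% interval -0.63 to 0.63). Without the low WT 3 array its Naa10-KO values all lay under the WT values. Hsd17b7, the ketoreductase, read 9.81, 9.45 and 9.55 in WT and 9.08, 8.95 and 9.47 in Naa10-KO (difference -0.44, SE 0.20, adjusted p = 0.584), and only Naa10-KO 3 reached the WT range.

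The last steps move and add double bonds and reduce the final one. Ebp, the sterol isomerase, overlapped between the genotypes (10.66, 10.55 and 10.97 in WT, 10.34, 10.53 and 10.78 in Naa10-KO, difference -0.17, adjusted p = 0.794). Sc5d, the desaturase that makes dehydrocholesterol, read 12.43, 12.27 and 12.04 in WT and 11.78, 11.99 and 11.91 in Naa10-KO. The groups did not overlap, but the difference was small at -0.35 (SE 0.16, unadjusted p = 0.0818, adjusted p = 0.585). Its other probe sets gave -0.53 and -0.75.

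Dhcr7, the reductase that turns dehydrocholesterol into cholesterol, had the lowest p of the members. It read 7.63, 7.26 and 7.79 in WT and 6.88, 6.86 and 6.48 in Naa10-KO, a mean of 7.56 ± 0.27 (SD, n = 3) against 6.74 ± 0.23. The gap between the groups was wider than in the other enzymes without overlap, and here WT 3 was the highest array. The log2 difference was -0.82 (SE 0.21, 95% interval -1.36 to -0.29, a 1.77-fold lower mean), with an unadjusted p of 0.0102 and an adjusted p of 0.436.

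**Figure D2:**
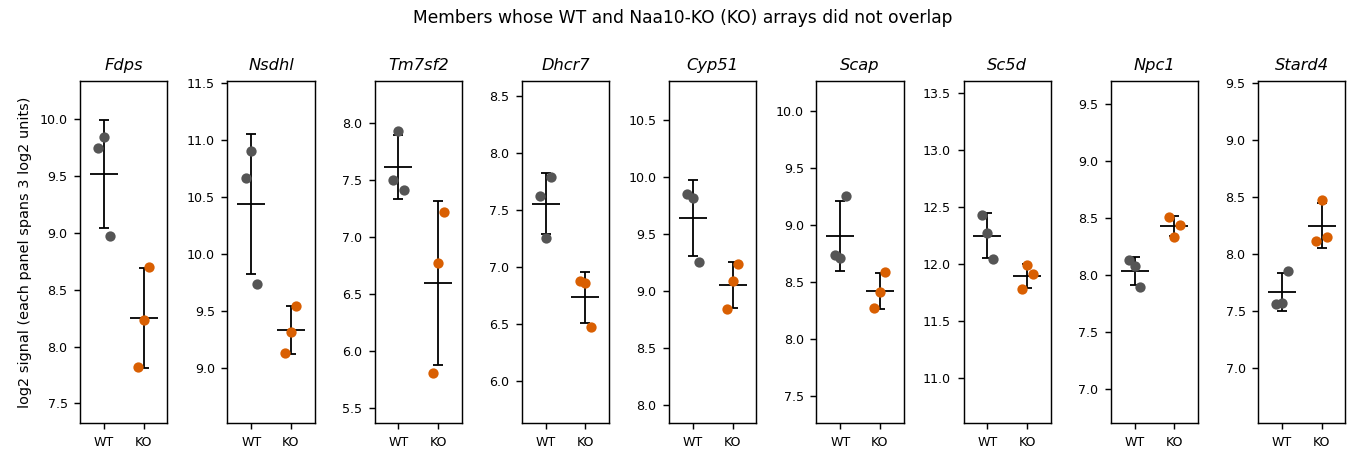
Log2 signal of the 9 members whose WT and Naa10-KO arrays did not overlap, with 1 point for each array and bars for the mean ± SD (n = 3); each panel spans 3 log2 units with its own range. Fdps, Nsdhl, Tm7sf2, Dhcr7, Cyp51, Scap and Sc5d lay lower in Naa10-KO, and Npc1 and Stard4 lay higher.

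The regulators gave no common direction. Srebf2, which encodes SREBP2, read 6.13, 6.44 and 7.05 in WT and 7.09, 6.76 and 7.05 in Naa10-KO (difference 0.42, SE 0.28, adjusted p = 0.662). It was the 1 regulator with a higher mean, WT 3 lay among the Naa10-KO arrays, and a second probe set of the gene differed by -0.18. SREBP2 is controlled by cleavage of the protein, which these arrays do not measure.

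Scap, the escort that carries SREBP2 to the Golgi, read 8.73, 8.71 and 9.25 in WT and 8.27, 8.41 and 8.58 in Naa10-KO. All Naa10-KO arrays lay lower, with a difference of -0.48 (SE 0.21, unadjusted p = 0.0674, adjusted p = 0.560), or -0.30 without WT 3. Insig1, itself a SREBP target that holds SCAP in the endoplasmic reticulum, read 13.23, 12.81 and 12.29 in WT and 11.78, 12.15 and 12.97 in Naa10-KO (difference -0.47, SE 0.40, adjusted p = 0.730). Here the range within each genotype was larger than the step between the means. Insig2, its partner, differed by -0.15 (adjusted p = 0.784). The median of the 4 regulators was -0.31, and it ranged from -0.40 to -0.14 as each array was left out in turn.

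Of the genes for uptake and transport, Stard4 and Npc1 had higher signals in Naa10-KO. Stard4, a soluble carrier that moves cholesterol to the endoplasmic reticulum, read 7.56, 7.57 and 7.85 in WT and 8.11, 8.47 and 8.15 in Naa10-KO. The groups did not overlap, and the difference was 0.58 (SE 0.18, 95% interval 0.14 to 1.03, a 1.5-fold higher mean, unadjusted p = 0.0192, adjusted p = 0.484). Its other probe sets, of lower signal, differed by -0.11 and 0.06.

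Npc1, the membrane protein that exports cholesterol from lysosomes, read 8.13, 8.08 and 7.89 in WT and 8.51, 8.33 and 8.44 in Naa10-KO. Both groups were tight and did not overlap (difference 0.39, SE 0.14, 95% interval 0.03 to 0.75, a 1.31-fold higher mean, unadjusted p = 0.0380, adjusted p = 0.531). Npc2, its soluble partner in the lysosome, overlapped (15.06, 14.79 and 14.90 in WT, 14.75, 14.82 and 14.74 in Naa10-KO, difference -0.15, adjusted p = 0.753).

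Genes of efflux and storage showed no gap between the genotypes in any of the 4 measured, with a median difference of 0.02. Abca1, which loads cholesterol onto apolipoprotein A-I, read 13.32, 13.09 and 13.02 in WT and 13.29, 13.16 and 12.75 in Naa10-KO (difference -0.08, SE 0.20, 95% interval -0.58 to 0.43). Abcg1, which passes cholesterol to HDL, differed by 0.15 (SE 0.33, adjusted p = 0.899), and its highest array was Naa10-KO 1 at 11.14. Another probe set of Abcg1 differed by -0.40. Apoe, the lipoprotein ligand that macrophages and adipocytes secrete, differed by 0.12 (SE 0.25, adjusted p = 0.895), and WT 3 at 14.86 was its highest array. Nr1h3 differed by -0.18 (SE 0.30, adjusted p = 0.859). The 95% intervals of these 4 genes reached as far as -0.93 for Nr1h3 and 0.99 for Abcg1, so equal levels were not shown.

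Another 46 sterol genes were listed by role, of which 35 were measured and 0 passed the threshold. Their means were higher in 18 and lower in 17, with a median difference of 0.02, and the groups did not overlap in 3 genes each way, which is 8.57% in each direction and near the shares of all genes (8.14% lower, 10.0% higher). Tmem97, a partner of NPC1 and a SREBP target, was the only one with an unadjusted p under 0.05. It read 6.6, 7.12 and 6.95 in WT and 6.46, 6.18 and 6.38 in Naa10-KO (difference -0.55, unadjusted p = 0.0323, adjusted p = 0.518), all Naa10-KO arrays lower.

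Among the other synthesis and branch genes, Cyb5r3, the reductase that feeds electrons to sterol desaturation, differed by -0.59 (adjusted p = 0.584) with no overlap. Ggps1 and Dhdds, which draw isoprenoids off for other lipids, differed by -0.22 and -0.19, and Lbr, a sterol reductase of the nuclear envelope with the same activity as Tm7sf2, by 0.26. The 3 other probe sets of Ggps1 ran from -0.02 to 0.19, and only 1 of them had the same sign. Among the other regulators, the protease gene Mbtps2 (0.37, adjusted p = 0.553), whose product cuts SREBPs in the Golgi, and the ubiquitin ligase gene Rnf139 (0.38, adjusted p = 0.556) had all Naa10-KO arrays above the WT arrays. Srebf1, the SREBP gene more tied to fatty acid synthesis, differed by 0.38 (adjusted p = 0.674), and Erlin2 by -0.23.

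Stard5, a relative of Stard4, read higher on all Naa10-KO arrays on its brightest probe set (0.41, adjusted p = 0.570), but its 3 other probe sets ran from -0.83 to 0.12 and only 1 of them had the same sign. Vldlr, a lipoprotein receptor, and Stard3, a late endosomal sterol carrier, differed by -0.31 and -0.25 with overlap. In the other efflux and storage genes, Lpcat3, an LXR target that remodels phospholipids, was lower on all Naa10-KO arrays by a small step (-0.13, adjusted p = 0.765). Cyp27a1, which makes an oxysterol, differed by 0.26, and the lipoprotein genes Apoc1 and Pltp differed by -0.19 and -0.23.

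**Figure D3:**
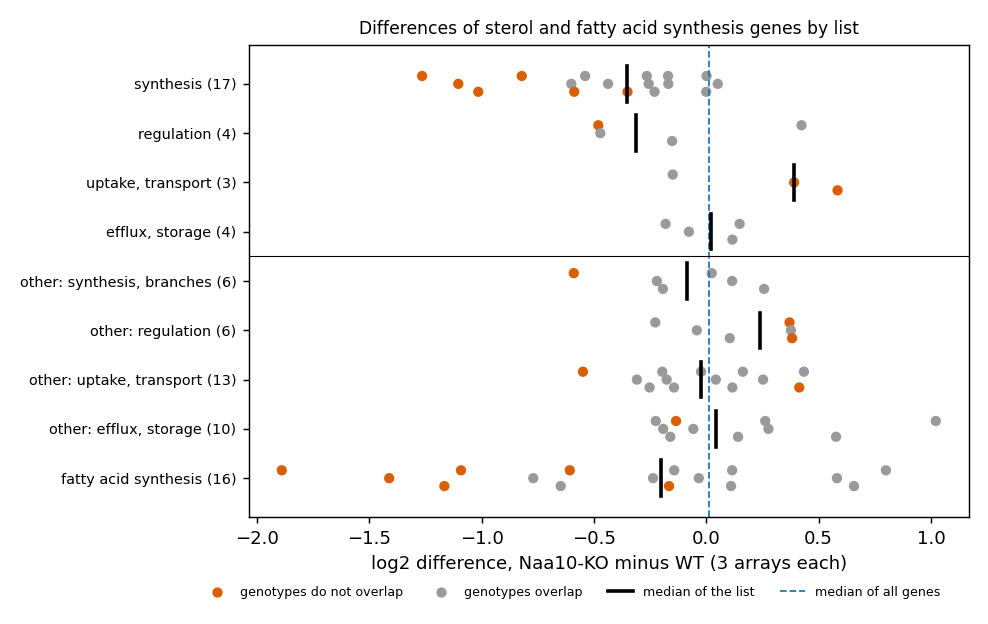
Log2 difference, Naa10-KO minus WT, of each measured gene (1 point each) in the 4 member lists, the 4 lists of other sterol genes and the fatty acid synthesis list; orange points had no overlap between the genotypes, vertical bars mark list medians and the dashed line marks the median of all genes. The synthesis list has its median at -0.35, and the efflux and storage list at 0.02.

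Fatty acid synthesis shares acetyl-CoA and SREBP control with this pathway, and its 16 genes were set beside it. Of these, 11 had lower means, the median difference was -0.20, and 6 had no overlap, all lower, against 48.6% lower means and 8.14% lower with no overlap over all genes. Fasn, fatty acid synthase, read 11.51, 11.55 and 11.25 in WT and 9.55, 10.34 and 10.19 in Naa10-KO (difference -1.41, unadjusted p = 0.00206, adjusted p = 0.231). Its groups were far apart. Scd2, a desaturase, differed by -1.89 (adjusted p = 0.473), Slc25a1, the carrier that brings citrate out of mitochondria, by -1.17 (adjusted p = 0.521), and Me1, which supplies NADPH, by -0.61 (adjusted p = 0.512). At the other end, Fads1, another desaturase, was the highest at 0.80 (adjusted p = 0.603), so this list also ran in both directions.

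The medians of the synthesis genes differed by array as well as by genotype, while single genes such as Dhcr7 and Ebp, both highest on WT 3, ran otherwise. The median deviation from each gene's own mean was 0.33 on WT 1, 0.25 on WT 2 and 0.0025 on WT 3, and -0.29, -0.29 and -0.09 on Naa10-KO 1, 2 and 3. Across the genotypes, the nearest pair was WT 3 and Naa10-KO 3. Naa10-KO 1 was the lowest array for 8 of the 17 enzymes and Naa10-KO 2 for 5, while WT 2 was the highest for 8. WT 3 was low in Fdps, Sqle, Lss, Cyp51, Msmo1 and Nsdhl. Without WT 3, 10 of the 17 enzymes had no overlap (14.6% of all genes then), and without Naa10-KO 3, 11 did (14.6% of all genes). The count was 6 without WT 1 or Naa10-KO 2 and 7 without WT 2 or Naa10-KO 1, where 11.3% to 13.3% of all genes had no overlap in that direction. With fewer arrays the share of all genes is thus above the 8.14% of the full comparison. The number lower at an unadjusted p under 0.05 in limma was 4, against 4.35% of all genes. It was 2 without WT 1, WT 2, Naa10-KO 1 or Naa10-KO 2, against 2.53% to 4.02% of all genes. Without WT 3 or Naa10-KO 3 it was 6, against 4.14% and 5.11%.

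Markers of another tissue, skeletal muscle, lay higher on the Naa10-KO arrays, and 1 of them (Pvalb) passed the test over all genes. All 18 measured skeletal muscle markers had higher means in Naa10-KO and 16 had no overlap (10.0% of all genes), and their summed linear signal was 8545 to 23400 on the WT arrays and 129200 to 165800 on the Naa10-KO arrays. On at least 1 array, each of the 18 exceeded the median of all values. Their mean log2 signal was 5.45, 5.96 and 8.59 on WT 1, 2 and 3 and 11.37, 11.31 and 11.63 on Naa10-KO 1, 2 and 3. WT 3 thus had the most muscle signal of the WT arrays and the lowest synthesis signal, whereas Naa10-KO 3 had the most of all arrays and the highest synthesis signal within its group. With the muscle mean as a covariate, which follows genotype, the differences became -0.08 for Fdps, 0.48 for Nsdhl and -1.23 for Dhcr7. Within a genotype the muscle mean varied mostly through WT 3 (8.59, against 5.45 and 5.96 on WT 1 and 2). The fits with this covariate thus rest largely on WT 3. 

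Of the markers of brown and beige adipocytes, 7 of 9 had higher means and 5 were higher with no overlap (10.0% of all genes). These 5 were Ucp1 (6.17), Slc27a2 (5.50), Cidea (2.10), Cox7a1 (2.00) and Cox8b (1.17). Ucp1 and Slc27a2 lay below the median of all values on every WT array. Dio2 (-0.97) and Otop1 (-0.31) had lower means, but Dio2 lay below the median of all values on all 6 arrays. The 2 other probe sets of Dio2 differed by 0.03 and 0.29. The summed signal of the 9 markers was 4475 to 8196 in WT and 14100 to 20020 in Naa10-KO, and their part in the result was not tested. The adipocyte markers were bright in both groups, as befits the labelled tissue: 8 were measured, the summed signal was 211200 to 274700 in WT and 222500 to 256100 in Naa10-KO, and 0 lay below the median on all arrays. Means were lower in 5 of the 8, and 1, Cidec, lay lower with no overlap (8.14% of all genes). Macrophage markers, of a cell rich in sterol efflux, summed to 42500 to 48830 in WT and 44300 to 56800 in Naa10-KO, with 7 of 14 means higher. Markers of skin and sebaceous glands, which make much sterol, summed to 1315 to 1385 in WT and 1134 to 1615 in Naa10-KO. Of these, 7 of 9 means were lower and 1 marker lay higher with no overlap (10.0% of all genes). Schwann cell markers summed to 6892 to 7299 and 5745 to 7131, and lymph node markers to 1064 to 2828 and 610.1 to 4392. Hepatocyte markers summed to 637.5 to 1054 and 694.9 to 1160, with 4 of 7 below the median on every array. Means were lower in 4 of 7 Schwann cell, 8 of 9 lymph node and 2 of 7 hepatocyte markers, against 48.6% of all genes. With no overlap, 2 Schwann cell markers lay lower and 2 higher, and 1 hepatocyte marker lay lower and 2 higher (8.14% and 10.0% of all genes). A sum follows its brightest genes, so similar sums do not show that each marker was level.

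**Figure D4:**
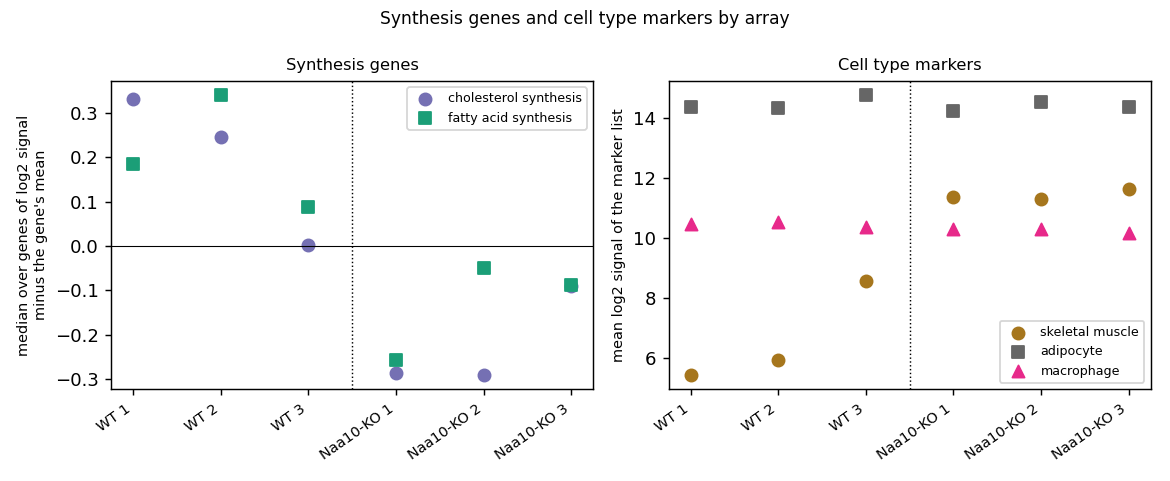
Left, the median over genes of log2 signal minus the gene's mean on each array for the 17 cholesterol synthesis genes and the 16 fatty acid synthesis genes; right, the mean log2 signal of the skeletal muscle, adipocyte and macrophage markers on each array. Cholesterol synthesis ran from 0.33 on WT 1 to -0.29 on Naa10-KO 2, and muscle signal from 5.45 on WT 1 to 11.63 on Naa10-KO 3.

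Over all genes, 16 were higher and 5 lower in Naa10-KO in limma at an adjusted p of 0.05, and 883 and 791 at an unadjusted p of 0.05. Array medians lay between 5.78 and 5.96, and pairs of arrays correlated at 0.903 to 0.917 across the probe sets, which leaves no duplicated array. The Gapdh control probe sets on Naa10-KO 1 read 0.55 higher at the 3′ end than at the 5′ end, and the other arrays gave -0.27 to 0.01 for the same measure. The actin controls read higher at the 3′ end on every array, from 1.42 on Naa10-KO 3 to 2.07 on Naa10-KO 1. Without Naa10-KO 1 the synthesis median was -0.39 and 7 of 17 enzymes had no overlap, against 11.3% of all genes.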

How the data were processed

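RNA of 6 inguinal fat samples, 3 WT and 3 Naa10-KO, was measured on Affymetrix Mouse Genome 430 2.0 arrays. Per the labels' protocols, RNA was taken from lipid-depleted TRIzol lysates over RNeasy Plus columns, and biotin-labelled cRNA was made from 3 µg. The authors' deposited table holds log2 signals of 45101 probe sets (64 of them controls). Linear signals averaged 500 on every array after a trim of 2% at each end, which shows a global scaling by software that the sources used here do not name. Values were used as deposited. Without detection calls, it is unknown whether a low signal lay above background.

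Probe sets were named through GEO's platform annotation of 2016: 34945 had 1 gene and 932 had several, and the latter were left out. Each of 18193 genes took its probe set with the highest mean. The test was limma's (version 3.58.1, under R 4.3.3, lmFit and eBayes, 2-sided, genotype only), with Benjamini-Hochberg adjustment over all genes, a threshold of 0.05 and 1.39 prior degrees of freedom. The number of arrays limits the precision. Intervals are limma's 95% intervals. The steps were tested on simulated data.

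The members and lists were chosen with earlier results of these data known. All measured members are named; members without overlap or with an unadjusted p under 0.05 get every array's value, and of each list of other sterol or fatty acid genes up to 4 with the smallest p are named. Fads1, the Hmgcs1, Mvk, Pmvk, Sqle, Lss, Msmo1, Hsd17b7, Ebp, Srebf2, Insig1, Npc2 and Abca1 array values, and the split at squalene were added after values were seen. Alternatives were quantile normalization, centring on array medians, the mean over a gene's probe sets, leaving out x_at and s_at probe sets, a filter or a floor for low values, array weights, eBayes with trend and robust options, a block for the replicate number, the muscle marker mean as a covariate, an unmoderated test, and each array left out in turn. Counts without overlap and of lower means were recomputed without each array after the data were seen.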

Additional observations from a re-analysis of the deposited data

How the results depend on the processing

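Over 11 alternatives and the 6 fits that left out 1 array, 0 of the 28 members passed the threshold in limma. The lowest adjusted p was 0.0597, for Fdps in limma with trend and robust options. There 8 synthesis genes were lower at an unadjusted p under 0.05, against 5.80% of all genes. The 16 genes called higher over the whole array became 70 with the filter on low values, 104 with the floor, 102 with trend and robust options and 27 with array weights. The 5 called lower became 3 with quantile normalization, 13 with the floor and 35 with trend and robust options. Both counts were 0 with the mean of all probe sets, the replicate block, the muscle covariate and the unmoderated test, where 1491, 1276, 1103 and 1861 genes had an unadjusted p under 0.05. As each array was left out, they ranged from 0 to 29 and from 0 to 1, and the genes with an unadjusted p under 0.05 then numbered 1220 to 1727. The causes were not tested.

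Synthesis genes lower at an unadjusted p under 0.05 in limma were 4 of 17, against 4.35% of all genes. They numbered 7 with the floor (6.45% of all genes) and 8 with trend and robust options (5.80%). The replicate block gave 2 (3.45%) and the muscle covariate 0 (2.18%). Without 1 array they numbered 2 to 6, against 2.53% to 5.11% of all genes. Those without overlap (6, against 8.14% of all genes) then numbered 6 to 11, against 11.3% to 14.6%. The labels tie the replicate numbers to no litter or day, and deviations of like-numbered arrays were nearly uncorrelated (-0.01, -0.01 and -0.03). This does not exclude a shared litter or day, so the block is only an alternative. The synthesis median (-0.35) lay between -0.46 and -0.26 without 1 array and turned to 0.0252 only with the muscle covariate. The regulation median lay between -0.40 and -0.14 without 1 array. The median of uptake, transport, efflux and storage genes (0.12) was -0.0748 with the mean of all probe sets, -0.0388 with the covariate and between -0.069 and 0.3205 without 1 array, so it has no settled sign.

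The muscle covariate turned Hmgcs1 to -0.19, Mvd to 0.30, Idi1 to 0.0252, Sqle to 1.39, Lss to 0.53, Cyp51 to 0.30, Msmo1 to 1.18, Nsdhl to 0.48, Sc5d to 0.18, Srebf2 to -0.90, Insig1 to 0.63, Insig2 to 0.29, Abca1 to 0.34, Abcg1 to -0.71 and Apoe to -1.0005. Hmgcs1 was -0.0205 with quantile normalization, -0.0186 with the mean of all probe sets, -0.0163 with array weights, -0.0025 after centring and -0.0328 without x_at and s_at probe sets. Msmo1 was 0.0124 with quantile normalization, Abcg1 -0.13 with the mean of all probe sets and Fdft1 -0.26 without x_at and s_at probe sets. Without 1 array, Hmgcs1 ranged from -0.0462 to 0.0586, Mvd from -0.28 to 0.0041, Fdft1 from -0.022 to 0.11, Msmo1 from -0.25 to 0.13, Abca1 from -0.19 to 0.0802, Abcg1 from -0.15 to 0.35, Apoe from -0.0405 to 0.36 and Nr1h3 from -0.43 to 0.0703. Fdps, Tm7sf2, Dhcr7, Scap, Stard4 and Npc1 kept their sign in all 17 fits. So did Mvk, Pmvk, Hsd17b7, Ebp and Npc2, whose arrays overlapped. Fdps was only -0.08 with the muscle covariate, a fit that rests largely on WT 3. With 3 arrays a group, an interval of a member was often wider than its difference.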
